A study of Gallus gallus with 8 samples.

Results

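The genes described here encode antioxidant and glutathione enzymes, and they were read in the hearts of chicken embryos. They were chosen by symbol: superoxide dismutases, peroxiredoxins, glutathione peroxidases, glutathione transferases, thioredoxin and glutaredoxin genes, heme oxygenases, quinone reductases, methionine sulfoxide reductases, and CAT, GCLC, GCLM, GSS, GSR, NFE2L2 and KEAP1. Of 15873 rows in the expression table, 51 matched, and 50 of these reached 1 RPKM (reads scaled to gene length and library depth) in at least 2 libraries. GPX2, a glutathione peroxidase known from the gut, was the row that did not reach that level, at 0.0686 to 0.721 RPKM. In all, 11556 genes reached it. KEAP1, GPX4, PRDX2, PRDX5, TXNIP and GSTA2 had no row under those symbols and are not analysed here.

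Messenger RNA came from heart tissue at day 16 of incubation, with 8 libraries from 4 chicken breeds and 2 libraries per breed. Linzhi Tibetan and Lhasa White were taken as highland breeds and Chahua and White Leghorn (spelled "White leghom" in the labels) as lowland breeds, from their names and the study's stated interest in highland chickens. No treatment is named, and the labels used here give neither the altitude nor the oxygen level of incubation, nor the sex of the embryos. Whether both libraries of a breed stem from different embryos is not stated in the labels. The p-values therefore cover the spread among libraries, which may be technical. As each side holds 2 breeds, altitude of origin and breed cannot be told apart.

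Superoxide dismutases turn superoxide, which leaks from the respiratory chain, into hydrogen peroxide. Catalase, the glutathione peroxidases and the peroxiredoxins then remove the peroxide. Peroxiredoxins are recharged by thioredoxin and thioredoxin reductase, and glutathione peroxidases by the tripeptide glutathione and glutathione reductase, both at the cost of NADPH. Heart muscle is rich in mitochondria and draws on these systems throughout life, and the transcription factor NRF2 (NFE2L2) induces many of the genes when oxidants or electrophiles build up.

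Mapped reads recovered from the values ranged between 17245669 in Chahua 1 and 22157553 in Linzhi Tibetan 2. The tissue label held against its markers: TNNT2, cardiac troponin T, was at 5502 to 8848 RPKM. The 8 liver markers summed to 7.33 to 12.8 RPKM, with ALB, the albumin of liver, at 0.221 to 2.77. SERPINC1 gave most of the liver sum, at 6.43 to 9.75 RPKM. Lhasa White 2 stood apart, with MYH7 and BMP-10, of the list of 6 atrial markers, far above the rest: MYH7 at 1457 RPKM and BMP-10 at 289.7 RPKM, against 0.878 to 115 and 0.745 to 22.4 in the other libraries. Its 9 fibroblast and matrix markers summed to 4371 RPKM, against 1006 to 1778, and its 8 cardiomyocyte markers to 15688 RPKM, against 21390 to 23170. Of the cardiomyocyte markers, all but ACTC1 and MYBPC3 were lowest in Lhasa White 2. MYH15, also in the ventricular list, was at 1288 RPKM there, against 3198 to 4949 RPKM elsewhere. ELN (elastin) gave 1468 RPKM of the matrix sum, against 67.5 to 157 elsewhere. All markers of that sum were highest in Lhasa White 2 except TCF21, which was at 17.4 RPKM there and also in Linzhi Tibetan 1. Chahua 2 was next for MYH7 and BMP-10, at 115 and 22.4 RPKM. NR2F2 had the same order, at 66.4 RPKM in Lhasa White 2 and 40.2 RPKM in Chahua 2, against 28.3 to 33.6 RPKM elsewhere. The other atrial markers, NPPA, TBX5 and GJA5, did not follow this order. NPPA in Lhasa White 2 (1690 RPKM) lay inside the span of the other libraries (1286 to 2717 RPKM). Chahua 2 was the lowest of the 8 libraries for TBX5 (41.8 RPKM) and GJA5 (49.4 RPKM). TBX5 was at 89.1 RPKM in Lhasa White 2, below Linzhi Tibetan 1 at 109.9 RPKM. The 4 ventricular rows summed to 10736 RPKM in Lhasa White 2, the lowest, and 24391 RPKM in Chahua 2, the highest. All 4 rows were lowest in Lhasa White 2, with IRX4 at 16.2 RPKM against 61.7 (Chahua 2) to 90.9 RPKM elsewhere. W-linked transcripts, which only females carry, summed to 815 to 981 RPKM in Lhasa White 2, Chahua 1, Chahua 2 and White Leghorn 1, against 0.0946 to 8.33 in the other 4 libraries. Summed erythroid markers, dominated by globins, ranged between 5055 RPKM in Linzhi Tibetan 1 and 22218 RPKM in Lhasa White 1.

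Transcripts of peroxide-removing enzymes took the largest share of the 50 genes in the embryonic heart. The 50 genes summed to 3232 to 3631 RPKM per library, 0.469% to 0.537% of all RPKM, with a coefficient of variation of 3.73% over the 8 libraries. Peroxiredoxins took 25.7% of this sum and glutathione peroxidases 21.0%, followed by thioredoxins, glutaredoxins and their reductases with 16.5% and superoxide dismutases with catalase at 14.7%. Glutathione transferases took 7.67%, the wider thioredoxin domain family 5.57%, methionine sulfoxide reductases 4.17%, glutathione synthesis and recycling 2.48%, and NFE2L2 with the heme oxygenases and quinone reductases 2.24%.

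**Figure D1:**
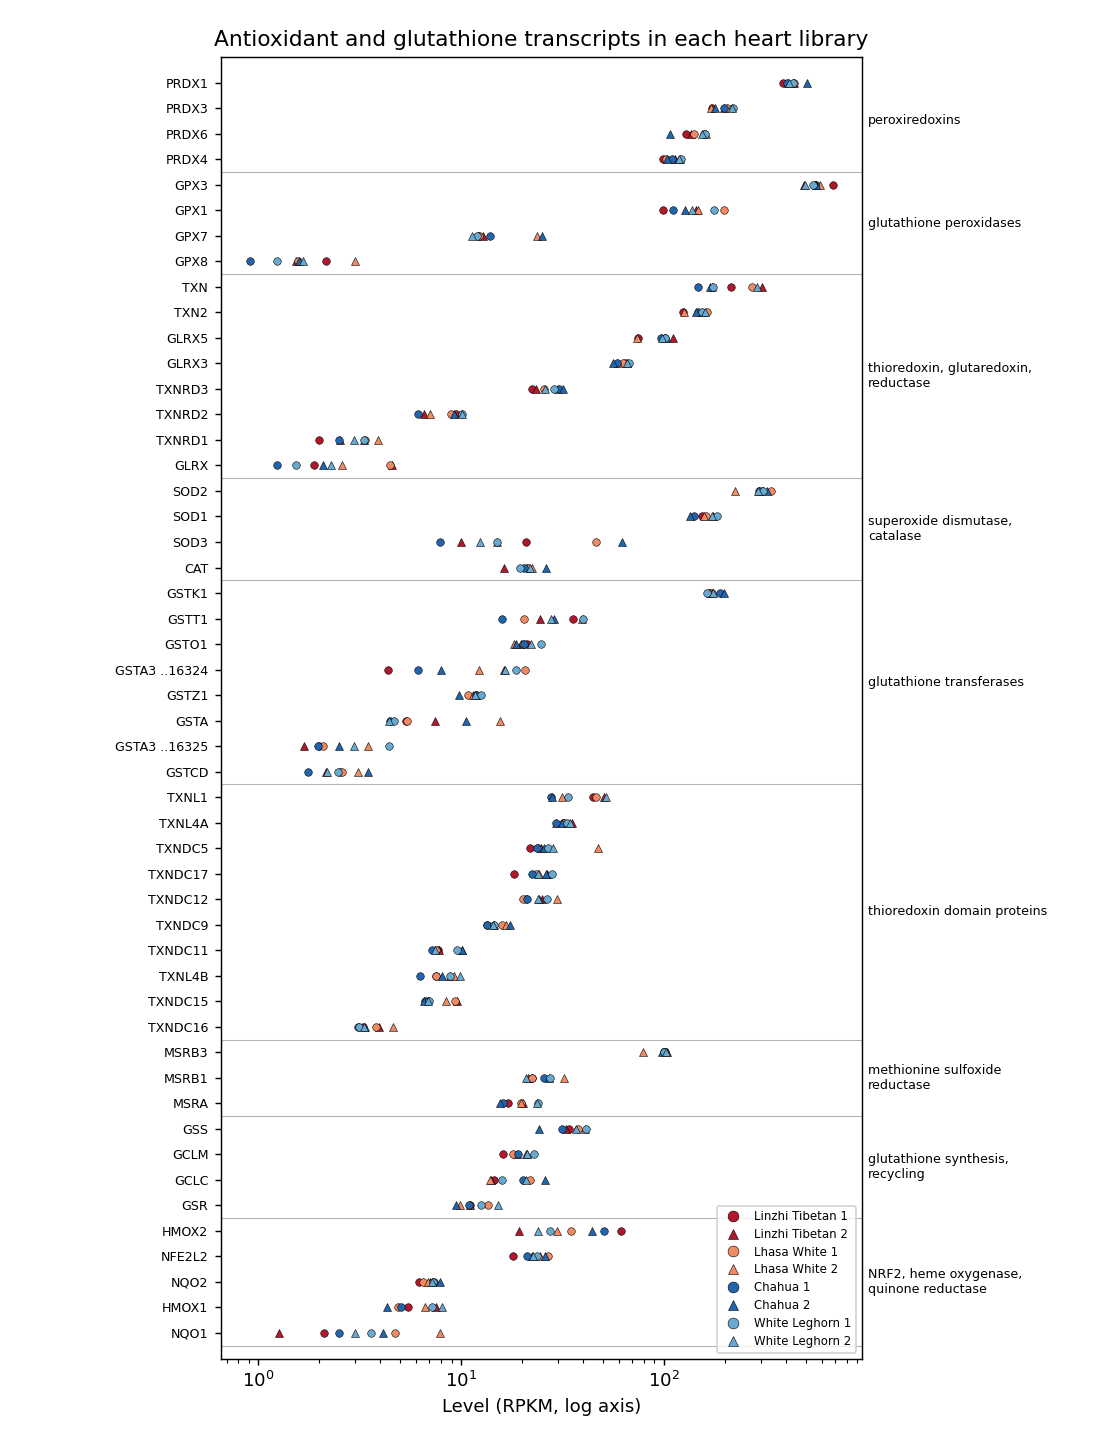
Level of each of the 50 genes in each of the 8 heart libraries, in RPKM on a log axis, grouped by enzyme family; color marks the breed and shape the library (circle 1, triangle 2), and GSTA3 rows carry the end of their gene identifier. GPX3, PRDX1 and SOD2 lie at 224 RPKM or more in every library, while GLRX, GSTA3 (ENSGALG00000016325), GSTCD, TXNRD1 and GPX8 lie at 4.60 RPKM or less.

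The mitochondrial and cytosolic enzymes were the main superoxide dismutase transcripts of these hearts. SOD2, the manganese enzyme of the mitochondrial matrix, was at 304 and 296 RPKM in Linzhi Tibetan, 338 and 224 in Lhasa White, 296 and 323 in Chahua, with 307 and 293 in White Leghorn. Lhasa White 2 was the lowest library and the others lay within 293 to 338 RPKM, so highland and lowland values overlapped. SOD1, the copper and zinc enzyme of the cytosol, was at 154 and 175 RPKM in Linzhi Tibetan, 162 and 158 in Lhasa White, 141 and 135 in Chahua, with 183 and 172 in White Leghorn. Both Chahua libraries were below all others. CAT, the peroxisomal catalase, ranged between 16.3 and 26.2 RPKM.

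SOD3, the secreted dismutase of the extracellular matrix and vessel wall, was the most variable of the 50 genes, with a coefficient of variation of 83.2%. It was at 20.9 and 9.97 RPKM in Linzhi Tibetan, 46.5 and 15.1 in Lhasa White, 7.86 and 62.5 in Chahua, with 15.1 and 12.5 in White Leghorn. The lowest and the highest library were both Chahua, so the spread lay within a breed: the Chahua libraries differed by 2.84 on the log2(RPKM + 1) scale, while breed means ranged over 0.91. These values rest on 100 to 910 reads per library. In bulk tissue, a smaller share of the cells that make SOD3 and less of its RNA per cell cannot be told apart.

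Of the peroxiredoxins, all 4 with a row were at 99.3 RPKM or more in every library. PRDX1, the main cytosolic form, was at 389 and 439 RPKM in Linzhi Tibetan, 437 and 408 in Lhasa White, 407 and 506 in Chahua, with 436 and 415 in White Leghorn. PRDX3, the mitochondrial form, was at 173 and 199 RPKM in Linzhi Tibetan, 206 and 172 in Lhasa White, 198 and 179 in Chahua, with 220.2 and 216 in White Leghorn. For both genes the breeds overlapped, apart from PRDX3 in White Leghorn, whose 2 libraries were the highest of the 8. PRDX4, which works in the endoplasmic reticulum, ranged between 99.3 RPKM in Linzhi Tibetan 1 and 122 RPKM in White Leghorn 1. PRDX6, which also repairs oxidized membrane lipids, ranged between 107 and 162 RPKM, with Chahua 2 the lowest at 107 and Chahua 1 at 158. All 4 peroxiredoxins were lower in Linzhi Tibetan 1 than in any White Leghorn library.

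GPX3, the glutathione peroxidase that is secreted into plasma, was the most abundant of the 50 genes, at 681 and 492 RPKM in Linzhi Tibetan, 564 and 589 in Lhasa White, 555 and 562 in Chahua, with 544 and 495 in White Leghorn. Its highest and its lowest library were both Linzhi Tibetan, so that breed spanned all others. GPX1, the cytosolic selenoenzyme, was at 99.0 and 145 RPKM in Linzhi Tibetan, 198 and 148 in Lhasa White, 111 and 127 in Chahua, with 177 and 137 in White Leghorn. It was high in Lhasa White 1 and White Leghorn 1 and lowest in Linzhi Tibetan 1. GPX7, a peroxidase of the endoplasmic reticulum, was highest in Lhasa White 2 (23.8 RPKM) and Chahua 2 (25.03 RPKM), against 11.3 to 13.9 RPKM in the remaining 6 libraries. These are the 2 libraries highest in MYH7 and BMP-10. GPX8, a membrane-bound relative in the same compartment, was at 0.915 to 3.01 RPKM and highest in Lhasa White 2.

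Among the thioredoxins, TXN, the cytosolic electron donor to peroxiredoxins, was at 214 and 306 RPKM in Linzhi Tibetan, 274 and 174 in Lhasa White, 147 and 169.5 in Chahua, with 175 and 287 in White Leghorn. Its libraries fell into a lower set of 147 to 175 RPKM and a higher set of 214 to 306 RPKM that cut across Lhasa White and White Leghorn. TXN2, its mitochondrial counterpart, ranged between 124 and 163 RPKM. Their reductases were far lower: TXNRD1 (cytosolic) at 2.0 to 3.90 RPKM, TXNRD2 (mitochondrial) at 6.17 to 10.1 RPKM, and TXNRD3, a thioredoxin and glutathione reductase best known from mammalian testis, at 22.5 to 31.9 RPKM.

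Glutaredoxins, which reduce disulfides with glutathione, were led by the forms that handle iron-sulfur clusters. GLRX5, the mitochondrial one, ranged between 73.9 and 111 RPKM, and GLRX3 between 56.2 and 67.4 RPKM. GLRX3 had the lowest coefficient of variation of the 50 genes, 6.47%. GLRX, the classical cytosolic glutaredoxin, was at 1.90 and 4.60 RPKM in Linzhi Tibetan, 4.47 and 2.60 in Lhasa White, 1.24 and 2.10 in Chahua, with 1.54 and 2.28 in White Leghorn, from 45 to 214 reads. Of the 10 thioredoxin domain genes, TXNL1, which binds the proteasome, had the highest mean at 39.4 RPKM. TXNL4A, a part of the spliceosome, followed at 32.2 RPKM and TXNDC5, a disulfide isomerase of the endoplasmic reticulum, at 27.8 RPKM. TXNDC5 reached 47.3 RPKM in Lhasa White 2, against 22.0 to 28.5 RPKM in the remaining 7 libraries.

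Glutathione is made by glutamate-cysteine ligase, with the catalytic subunit GCLC and the modifier GCLM, and then by glutathione synthetase, GSS. GCLC was at 14.5 and 14.1 RPKM in Linzhi Tibetan, 22.0 and 14.0 in Lhasa White, 20.4 and 26.1 in Chahua, with 16.0 and 20.9 in White Leghorn. GCLM was at 16.1 and 19.0 RPKM in Linzhi Tibetan, 18.1 and 20.9 in Lhasa White, 19.2 and 21.3 in Chahua, with 23.0 and 21.1 in White Leghorn. Both were lowest in a highland library and their ranges overlapped. GSS was at 34.3 and 32.9 RPKM in Linzhi Tibetan, 37.7 and 40.7 in Lhasa White, 31.6 and 24.2 in Chahua, with 41.2 and 36.8 in White Leghorn, and both Chahua libraries were the lowest of the 8. GSR, which reduces oxidized glutathione, ranged between 9.41 and 15.2 RPKM, highest in White Leghorn 2.

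Of the glutathione transferases, which join glutathione to electrophiles, GSTK1 of the mitochondrial and peroxisomal kappa class held 164 to 198 RPKM, with both Chahua libraries (190.2 and 198) above the others. GSTT1 of the theta class ranged over 16.0 to 40.1 RPKM and GSTO1 of the omega class over 18.3 to 24.8 RPKM. The alpha class had 3 rows: GSTA, GSTA3 (ENSGALG00000016324) and GSTA3 (ENSGALG00000016325). Alpha transferases are closely similar copies, and by symbol both GSTA3 rows fall on chromosome 3 in GRCg7b, so the division of reads among the 3 rows is uncertain. GSTA3 (ENSGALG00000016324) was at 4.38 and 16.4 RPKM in Linzhi Tibetan, 20.7 and 12.2 in Lhasa White, 6.14 and 8.01 in Chahua, with 18.7 and 16.5 in White Leghorn. GSTA reached 15.6 RPKM in Lhasa White 2 and 10.6 RPKM in Chahua 2, while the rest held 4.41 to 7.45 RPKM.

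Methionine sulfoxide reductases repair oxidized methionine in proteins. MSRA, which acts on the S form, was at 17.2 and 20.3 RPKM in Linzhi Tibetan, 19.7 and 19.7 in Lhasa White, 16.2 and 15.5 in Chahua, with 24.0 and 23.7 in White Leghorn. The order of the breed means was White Leghorn, Lhasa White, Linzhi Tibetan and Chahua, and the White Leghorn and Chahua libraries lay outside the range of all others. MSRB3, of the endoplasmic reticulum and mitochondria, was at 98.3 to 104 RPKM in 7 libraries and 78.9 in Lhasa White 2. MSRB1, a selenoprotein, reached 32.3 RPKM in Lhasa White 2, against 20.9 to 27.5 RPKM elsewhere.

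NFE2L2, the NRF2 factor itself, ranged between 18.2 RPKM in Linzhi Tibetan 1 and 26.9 RPKM in Lhasa White 1. Of its classical targets, NQO1, a quinone reductase, was at 2.12 and 1.27 RPKM in Linzhi Tibetan, 4.74 and 7.85 in Lhasa White, 2.50 and 4.12 in Chahua, with 3.60 and 3.01 in White Leghorn. Both Linzhi Tibetan libraries were the lowest and both Lhasa White libraries the highest of the 8, from 30 to 160 reads. HMOX1, the inducible heme oxygenase, was at 5.5 and 7.56 RPKM in Linzhi Tibetan, 4.89 and 6.64 in Lhasa White, 5.08 and 4.31 in Chahua, with 7.18 and 8.09 in White Leghorn. HMOX2, the constitutive heme oxygenase, was at 61.3 and 19.4 RPKM in Linzhi Tibetan, 35.0 and 29.9 in Lhasa White, 50.6 and 44.3 in Chahua, with 27.4 and 23.9 in White Leghorn. HMOX2 thus had its highest and its lowest library in the same breed, while HMOX1 was higher in both White Leghorn than in both Chahua libraries. NQO2, a quinone reductase that uses dihydronicotinamide riboside, was at 6.24 to 7.91 RPKM.

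**Figure D2:**
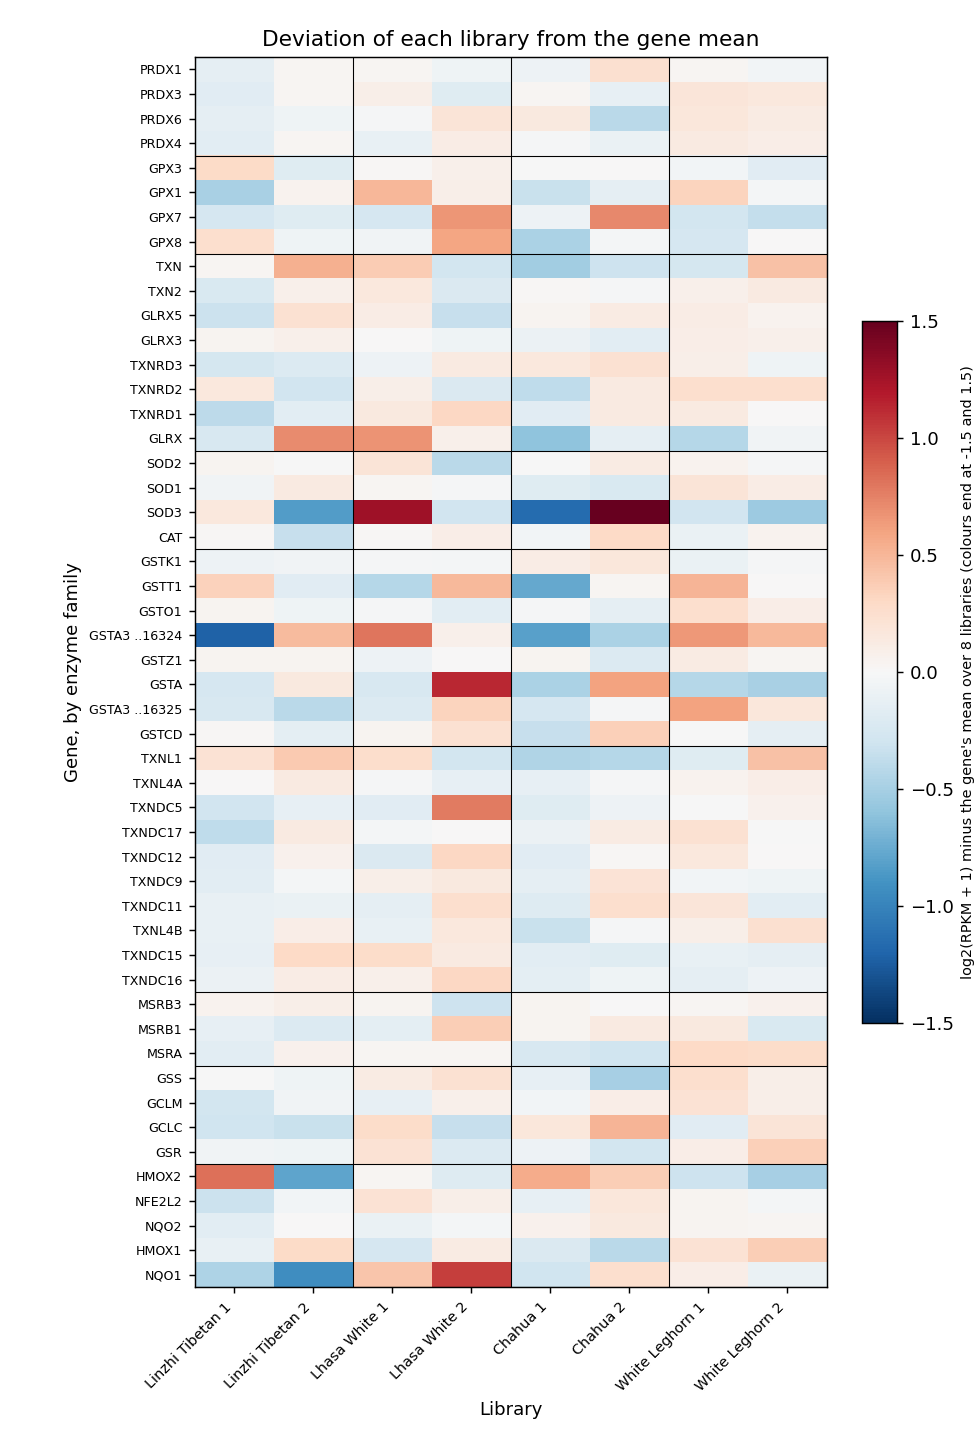
Deviation of log2(RPKM + 1) in each library from the gene's mean over the 8 libraries, for the 50 genes by enzyme family, with colors that end at -1.5 and 1.5. SOD3 has the strongest colors, with Chahua 1 at 7.86 RPKM and Chahua 2 at 62.5 RPKM, and NQO1 is below its mean in both Linzhi Tibetan libraries and above it in both Lhasa White libraries.

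Most genes spanned a narrow range over the 8 libraries. Their median coefficient of variation was 15.0%, against 18.6% over all genes past the filter, and 22 of 50 (44%) spanned less than 1.5-fold, against 30.7% of all genes. A span of at least 2-fold was seen in 12 (24%, against 37.9%) and of at least 3-fold in 7 (14%, against 18.5%). The genes were also more abundant, with a median of mean levels of 23.5 RPKM against 9.72 RPKM, and the spread was not compared at matched levels. In 31 of 50 genes (62%, against 70.2% of all genes) the largest difference between 2 libraries of a breed was at least as large as the range of the breed means. White Leghorn 1 held the highest value of 13 genes (26%, against 9.31% of all genes), and Linzhi Tibetan 1 the lowest value of 13 (26%, against 16.3%). Lhasa White 2 and Chahua 2 each held the highest value of 10 (20%, against 22.8% and 25.2%). Chahua 1 held the lowest value of 12 (24%, against 23.3%). These shares are descriptions of single libraries.

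Highland breeds were set against lowland breeds to ask whether any of these genes differed with the breeds' origin. None of the 50 passed, where the limma test of log2(RPKM + 1) with Benjamini-Hochberg adjustment over 11556 genes called 1 gene (0.00865%). At an unadjusted p under 0.05, limma gave 0 of 50 genes and voom on recovered reads also 0 of 50, against 3.13% and 2.86% of all genes. The voom test gave 0 adjusted calls over all genes. In RPKM, 23 genes were higher and 27 lower in highland breeds, with a median log2 difference of -0.01, against 0.03 and 58.0% higher over all genes. With median ratio scaling 18 were higher and 32 lower, and with quantile normalization 17 were higher and 33 lower, so the division of directions depends on the scaling.

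The 95% intervals hold the spread between libraries of a breed, not the spread among breeds of the same origin. They therefore limit the difference between the means of these breeds, not a difference by origin in general. NQO1 differed by 0.03 between highland and lowland breeds, but by -1.42 between Linzhi Tibetan and Lhasa White. For 47 of 50 genes (94%, against 91.7% of all genes) the interval of the highland minus lowland difference lay within 2-fold in either direction. For 38 (76%, against 66.6%) it lay within 1.5-fold. These folds are on the log2(RPKM + 1) scale, which understates the change of low genes. The exceptions at 2-fold were SOD3 (0.15, interval -1.34 to 1.64), GSTA (0.40, -0.42 to 1.21) and GLRX (0.61, -0.02 to 1.25). The intervals of PRDX1, SOD1 and NFE2L2 were narrower than the median half-width of the 50 genes, 0.32. Not every abundant gene had a narrow interval, as that of TXN was wider than this median. PRDX1 averaged 418 ± 23.8 RPKM in highland and 441 ± 44.9 RPKM in lowland libraries (SD, n = 4 each), with a difference of -0.07 (interval -0.32 to 0.17). SOD1 averaged 162 ± 9.17 RPKM in highland and 158 ± 23.2 RPKM in lowland libraries, with a difference of 0.05 (-0.15 to 0.25). NFE2L2 averaged 23.0 ± 3.72 RPKM in highland and 23.4 ± 2.07 RPKM in lowland libraries, with a difference of -0.03 (-0.30 to 0.24).

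**Figure D3:**
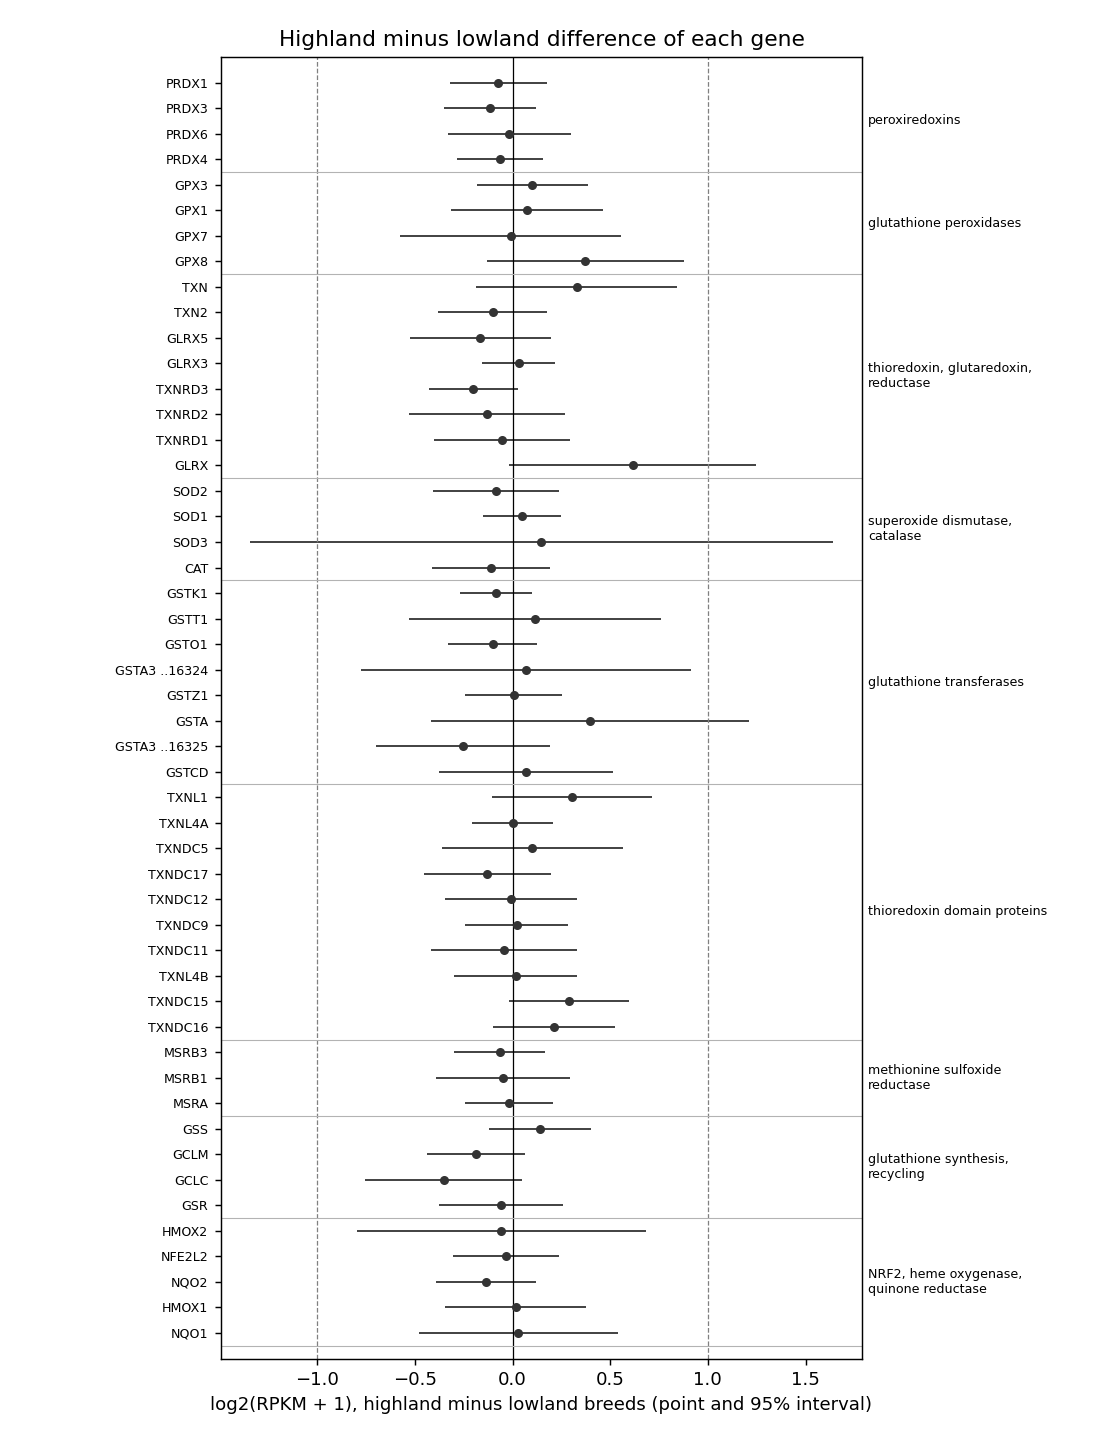
Difference of log2(RPKM + 1) between highland and lowland breeds for each of the 50 genes, by enzyme family, as a point with its 95% limma interval. Dashed lines mark 2-fold on this scale, which understates the change of low genes. All 50 intervals include 0, and those of SOD3, GSTA and GLRX reach past 2-fold.

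The 5 smallest p-values belonged to GLRX, TXNDC15, TXNRD3, GCLC and TXNL1, none under 0.05 before adjustment. GLRX averaged 3.39 ± 1.35 RPKM in highland and 1.79 ± 0.483 RPKM in lowland libraries (SD, n = 4 each). Its difference was 0.61 on the log2 scale (SE 0.269, limma adjusted p = 0.999). Linzhi Tibetan 1, at 1.90 RPKM, lay inside the lowland range of 1.24 to 2.28. TXNDC15, a membrane protein with a thioredoxin domain, was at 6.87 and 9.57 RPKM in Linzhi Tibetan, 9.39 and 8.46 in Lhasa White, 6.68 and 6.60 in Chahua, with 6.98 and 6.85 in White Leghorn. Its 4 lowland libraries lay close together and Linzhi Tibetan 1 fell among them. The log2 difference of TXNDC15 was 0.29 (SE 0.131, limma adjusted p = 0.999). TXNRD3 averaged 25.4 ± 3.33 RPKM in highland and 29.3 ± 2.53 RPKM in lowland libraries, with a difference of -0.20. GCLC averaged 16.2 ± 3.91 RPKM in highland and 20.8 ± 4.16 RPKM in lowland libraries, with a difference of -0.35. TXNL1 averaged 43.3 ± 8.26 RPKM in highland and 35.5 ± 11.5 RPKM in lowland libraries, with a difference of 0.31, and the limma adjusted p of these 3 genes was 0.999 each. Leaving out 1 library moved TXNL1 to 0.15 without White Leghorn 1, 0.17 without Lhasa White 1 and 0.46 without White Leghorn 2, GCLC to -0.20 without Lhasa White 2, and GLRX and TXNDC15 to 0.38 and 0.18 without Linzhi Tibetan 2. Without both Lhasa White 2 and Chahua 2, GCLC was at -0.11, and with a covariate for the W-linked level GCLC, GLRX, TXNRD3 and TXNL1 were at -0.59, 0.39, -0.11 and 0.015.

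NQO2 was the gene whose groups did not overlap, at 6.24 to 7.07 RPKM in highland and 7.19 to 7.91 RPKM in lowland libraries. It averaged 6.69 ± 0.376 RPKM in highland and 7.45 ± 0.319 RPKM in lowland libraries (SD, n = 4 each). Its log2 difference was -0.14 (SE 0.109, limma adjusted p = 0.999). That is 1 of 50 genes lower without overlap (2%), against 0.597% of all genes, and 0 of 50 higher, against 0.935%.

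Differences among single breeds were also below the threshold for all 50 genes. The moderated F test over the 4 breeds called 0 of 50, and 0% of all genes. At an unadjusted p under 0.05 the F test gave 2 of the genes (4%, against 6.52% of all genes), NQO1 (limma adjusted p = 0.634) and MSRA (limma adjusted p = 0.705). With voom it gave 2 as well, against 5.65% of all genes. Over the 6 breed pairs, 0 of 50 passed in any pair, where limma called 0.00865% of all genes for Lhasa White minus Chahua and 0% in each of the others, and voom 0% in all 6.

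At an unadjusted p under 0.05, Chahua minus White Leghorn gave 5 of 50 genes (10%, against 7.87% of all genes), and Linzhi Tibetan minus Chahua gave 3 (6%, against 7.06%). Linzhi Tibetan minus White Leghorn gave 2 (4%, against 6.14%), Lhasa White minus Chahua 2 (4%, against 5.18%), and Linzhi Tibetan minus Lhasa White 2 (4%, against 7.81%). Lhasa White minus White Leghorn gave 1 (2%, against 4.04%). With voom, Chahua minus White Leghorn gave 4 (against 7.43% of all genes), Linzhi Tibetan minus Chahua 3 (6.2%), Linzhi Tibetan minus White Leghorn 1 (5.81%), Lhasa White minus Chahua 1 (4.62%), Linzhi Tibetan minus Lhasa White 2 (7.32%) and Lhasa White minus White Leghorn 0 (3.65%). The pairs share libraries, so their counts are not independent.

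NQO1 differed most between the 2 highland breeds. Linzhi Tibetan, at 2.12 and 1.27 RPKM, was lower than Lhasa White, at 4.74 and 7.85, with a difference of -1.42 on the log2 scale (SE 0.307, interval -2.14 to -0.70, limma adjusted p = 0.477). Lhasa White was above Chahua by 0.75 (limma adjusted p = 0.910) and above White Leghorn by 0.73 (limma adjusted p = 1.0), and no library of the other breeds reached the lower Lhasa White value. Without Lhasa White 2 these differences were 0.44 and 0.42, and without Chahua 1 the first was 0.48. TXNRD1 had the same order, with 2.0 and 2.53 RPKM in Linzhi Tibetan against 3.35 and 3.90 RPKM in Lhasa White, with a difference of -0.50 (SE 0.210, limma adjusted p = 0.630).

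MSRA, GSS, SOD1 and HMOX1 were each lower in both Chahua libraries than in both White Leghorn libraries. The Chahua minus White Leghorn difference of MSRA was -0.56 (SE 0.136, interval -0.88 to -0.24, limma adjusted p = 0.455). Those of GSS, SOD1 and HMOX1 were -0.48, -0.36 and -0.60 (limma adjusted p = 0.576 each). GSTA3 (ENSGALG00000016324) was the fifth gene of this pair, at -1.21 (interval -2.40 to -0.02, limma adjusted p = 0.632). GSS was also lower in Chahua than in Lhasa White, with a Lhasa White minus Chahua difference of 0.49 (limma adjusted p = 0.910). Without Chahua 2 the 2 differences of GSS were -0.29 and 0.30.

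Linzhi Tibetan differed from Chahua by -0.42 in TXNRD3 (limma adjusted p = 0.671), 0.74 in TXNL1 (limma adjusted p = 0.681) and -0.65 in GCLC (limma adjusted p = 0.690). GCLC was at 14.5 and 14.1 RPKM in Linzhi Tibetan against 20.4 and 26.1 RPKM in Chahua, without overlap. W-linked transcripts were low in both Linzhi Tibetan libraries and high in both Chahua libraries. Their mean log2(RPKM + 1) was 0.033 and 0.21 against 6.27 and 6.18. Breed and W-linked level therefore cannot be told apart in this pair. Linzhi Tibetan differed from White Leghorn by -0.71 in GSTA3 (ENSGALG00000016325), at 2.01 and 1.69 against 4.40 and 2.98 RPKM, and by -0.34 in MSRA (limma adjusted p = 0.795 each).

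**Figure D4:**
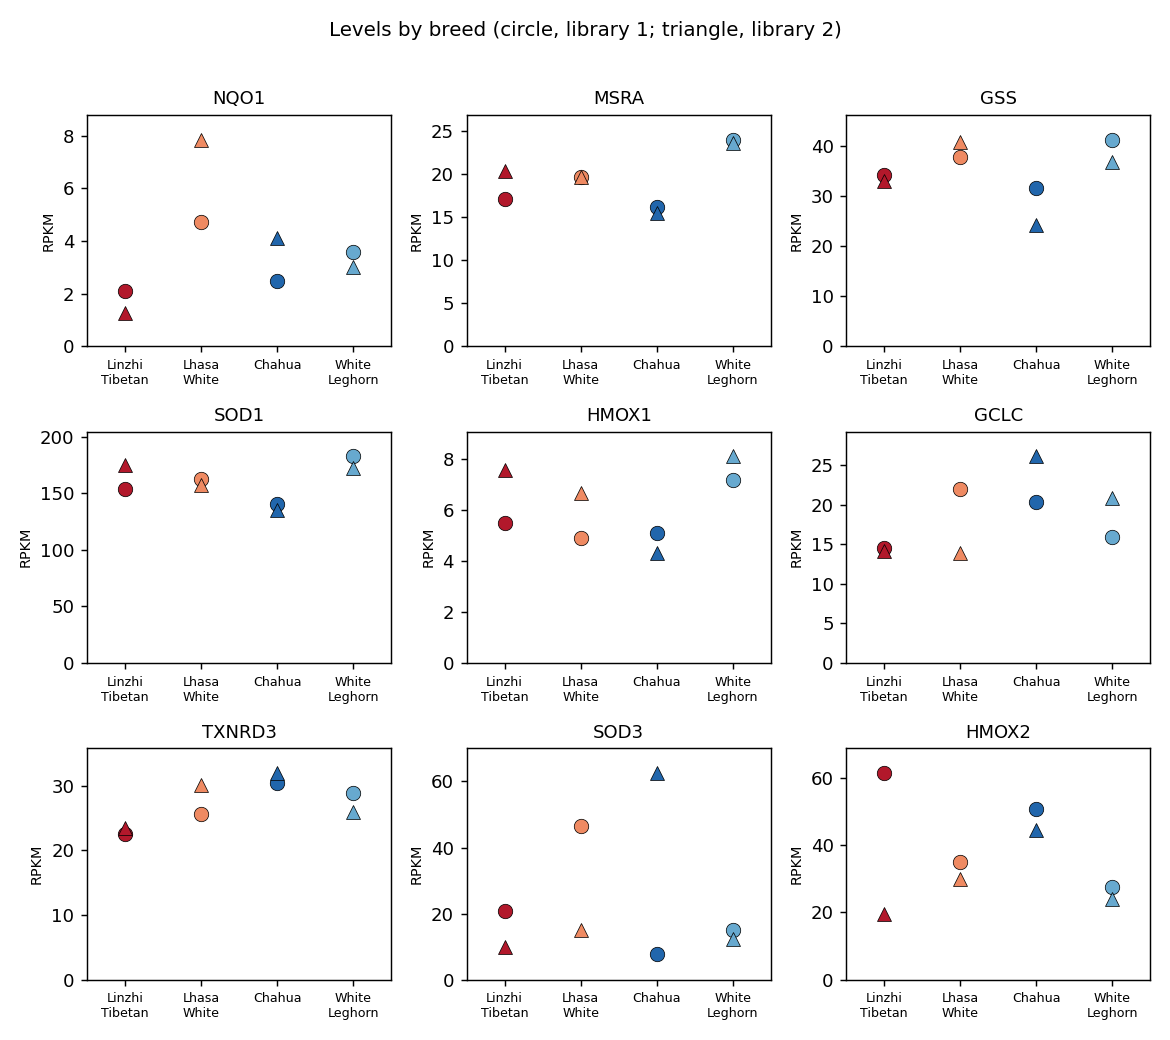
RPKM of 9 genes by breed, with a circle for library 1 and a triangle for library 2 of each breed, on axes that start at 0. NQO1 is lowest in Linzhi Tibetan (2.12 and 1.27 RPKM) and highest in Lhasa White (4.74 and 7.85 RPKM), MSRA separates Chahua (16.2 and 15.5) and White Leghorn (24.0 and 23.7), and the libraries of Chahua for SOD3 and of Linzhi Tibetan for HMOX2 lie far apart.

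Counted gene by gene, directions leaned one way in 4 of the 6 breed pairs. For Linzhi Tibetan minus White Leghorn, 14 of 50 genes were higher (28%, against 48.5% of all genes) and 36 lower, with a median of -0.13 against -0.01. For Linzhi Tibetan minus Lhasa White, 14 were higher (28%, against 42.9%) and 36 lower, with a median of -0.11 against -0.05. For Lhasa White minus Chahua, 35 were higher (70%, against 60.6%) and 15 lower, with a median of 0.10 against 0.07. For Chahua minus White Leghorn, 18 were higher (36%, against 48.1%) and 32 lower, with a median of -0.12 against -0.01. In all 4 pairs the median of all genes had the same sign, though it was only -0.01 in the pairs with White Leghorn. With median ratio scaling and with quantile normalization, 21 and 19 in place of 14 were higher in Linzhi Tibetan than in Lhasa White, and 28 in place of 35 in Lhasa White than in Chahua. The median of all genes for Linzhi Tibetan minus Lhasa White was then 0.00098 and 0.014. Against White Leghorn, 16 and 15 in place of 14 were then higher in Linzhi Tibetan, and 19 and 18 in place of 18 in Chahua. These are counts of directions, not of called genes.

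TXN and TXNL1 divided the libraries by their W-linked transcripts. TXNL1 averaged 30.3 ± 2.77 RPKM where W-linked transcripts were high and 48.5 ± 3.52 RPKM where they were low (SD, 4 libraries each), and the sets did not overlap, at 27.8 to 33.6 against 44.8 to 52.2 RPKM. TXN averaged 166 ± 13.2 RPKM with W-linked transcripts and 270.3 ± 39.6 RPKM without, at 147 to 175 against 214 to 306 RPKM. Both are placed on the Z chromosome of the GRCg7b gene table by symbol, as are GLRX and GPX8. Female birds carry a single Z and males a pair. Of 420 Z-linked genes past the filter, 146 (34.8%) were lower without overlap in the libraries with W-linked transcripts, against 2.23% of all genes.

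Of the 50 genes, TXN and TXNL1 were lower without overlap in libraries with W-linked transcripts (2 genes, 4%, against 2.23% of all genes) and MSRB1 and TXNRD3 higher (2 genes, 4%, against 1.43%). Fitted beside the breed means, the W-linked level had a slope of -0.10 log2 units per log2 unit for TXNL1 (SE 0.0265, limma adjusted p = 0.721) and -0.12 for TXN (SE 0.0367, limma adjusted p = 0.999). None of the 50 passed for this term, which called 0.216% of all genes in limma. At an unadjusted p under 0.05 there were 4 (8%, against 2.66%), TXNL1, TXN, MSRB1 (0.08) and GCLC (-0.09). The difference of W-linked level lies within Lhasa White and White Leghorn, where TXN was at 174 against 274 RPKM and at 175 against 287 RPKM. Lhasa White 2, which was also high in MYH7, BMP-10 and matrix transcripts, is 1 of the 4 libraries; their part in the slope was not tested, and without that library the slopes were -0.11 for TXN and -0.10 for TXNL1. With 1 of 4 highland and 3 of 4 lowland libraries holding W-linked transcripts, the highland minus lowland difference of TXN was 0.33 without and -0.0086 with that level as a covariate.

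Some of the 50 genes were ordered like the sum of the erythroid markers. HBE, a globin of that list, did not follow the sum, at 19.6 RPKM in Chahua 2 and 0.587 RPKM in Lhasa White 1. GSTA3 (ENSGALG00000016324) was lowest in Linzhi Tibetan 1, Chahua 1 and Chahua 2 (4.38, 6.14 and 8.01 RPKM), the 3 libraries with the lowest erythroid sums (5055, 7159 and 7543 RPKM). It was highest in Lhasa White 1 at 20.7 RPKM, the library with the highest erythroid sum at 22218 RPKM. Beside the breed means, its slope on the log2 erythroid sum was 0.79 (SE 0.113, limma adjusted p = 0.296). The other genes at an unadjusted p under 0.05 were GLRX5 (0.31), GPX1 (0.31), GLRX (0.47), TXN2 (0.20) and HMOX2 (-0.52). That makes 6 of 50 genes (12%, against 5.12% of all genes), and 0 of 50 and 0% of all genes passed the adjusted test. The slope of HMOX2 turned to 0.19 without either Linzhi Tibetan library. Linzhi Tibetan 1 and Linzhi Tibetan 2, with erythroid sums of 5055 and 19296 RPKM, held HMOX2 at 61.3 and 19.4 RPKM and GLRX5 at 74.8 and 111 RPKM.

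**Figure D5:**
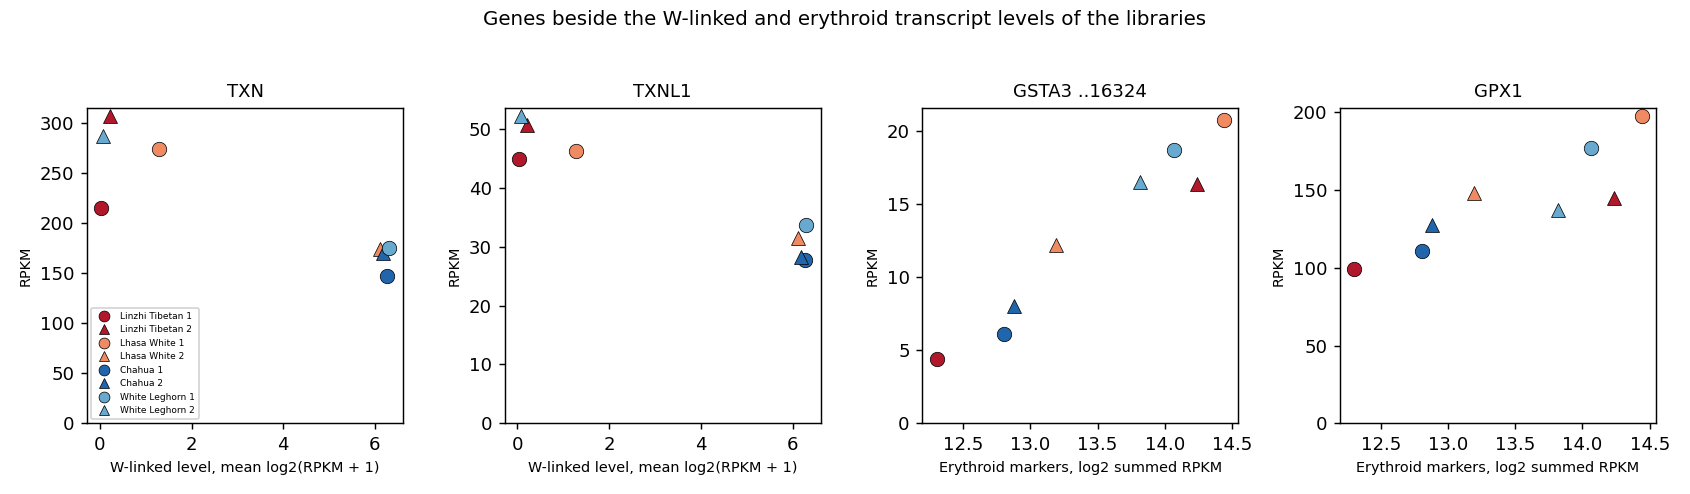
RPKM of TXN and TXNL1 against the W-linked level (mean log2(RPKM + 1) of 4 rows), and of GSTA3 (ENSGALG00000016324) and GPX1 against the log2 summed RPKM of 9 erythroid rows, with a point per library. TXN lies at 147 to 175 RPKM in the 4 libraries high in W-linked transcripts and at 214 to 306 RPKM in the other 4, and GSTA3 (ENSGALG00000016324) is lowest, at 4.38 RPKM, where the erythroid sum is lowest.

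Several genes differed between Lhasa White 2 and its sister library. Lhasa White 2 held the highest value of 20% of the 50 genes (against 22.8% of all genes) and the lowest of 12% (against 9.16%). TXNDC5 was at 47.3 against 24.0 RPKM in Lhasa White 1, GSTA at 15.6 against 5.45, GPX7 at 23.8 against 12.3, GPX8 at 3.01 against 1.57, and MSRB1 at 32.3 against 22.3 RPKM. SOD2 was at 224 against 338 RPKM, MSRB3 at 78.9 against 100.7, GLRX5 at 73.9 against 101.4, and SOD3 at 15.1 against 46.5 RPKM. For GLRX5, Linzhi Tibetan 1 was nearly as low, at 74.8 RPKM. For SOD3, Lhasa White 2 lay among most other libraries, while Lhasa White 1 was below only Chahua 2 at 62.5 RPKM. These libraries differed at the same time in fibroblast and matrix markers (4371 against 1468 RPKM) and cardiomyocyte markers (15688 against 21697 RPKM). They also differed in W-linked transcripts (815 against 8.33 RPKM) and erythroid markers (9351 against 22218 RPKM). The part of each of these in the differences between the 2 libraries was not tested. Of the 6 macrophage markers with a row, the sum was 30.5 RPKM in Lhasa White 2 and 11.8 to 18.7 RPKM elsewhere. Without Lhasa White 2 and Chahua 2, 0 of 50 genes passed between highland and lowland breeds, and 2 of 50 (4%, against 9.80% of all genes) had an unadjusted p under 0.05.

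Genes that supply or surround these enzymes gave no call either, where limma called 0% to 0.00865% of all genes per contrast. At an unadjusted limma p under 0.05, highland minus lowland gave SQSTM1 and CYBA of these lists, against 3.13% of all genes. The F test gave TALDO1, HPGDS, BLVRA and SEPP1, against 6.52% of all genes. Of all genes, 58.0% were higher in highland breeds, and the directions of the related lists were not counted under other scalings. Of 9 NADPH-supplying genes past the filter, 3 were higher and 6 lower in highland breeds and 0 passed in any contrast. The smallest F test p-values in that list were those of TALDO1, a pentose phosphate enzyme, and ME3, the mitochondrial malic enzyme (limma adjusted p = 0.621 and 0.761). TALDO1 was at 28.6 and 24.6 RPKM in Linzhi Tibetan, 41.1 and 43.3 in Lhasa White, 24.3 and 31.2 in Chahua, with 37.7 and 37.6 in White Leghorn. Lhasa White was highest and Linzhi Tibetan low, the order that NQO1 and TXNRD1 also had between these 2 breeds. ME3 ranged between 23.1 RPKM in Linzhi Tibetan 1 and 38.7 RPKM in Chahua 1.

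Of 11 genes around NRF2 control, 7 were higher and 4 lower, and 0 passed. SQSTM1, the p62 protein that ties up KEAP1 in mammals, averaged 92.5 ± 21.2 RPKM in highland and 70.5 ± 6.32 RPKM in lowland libraries (SD, n = 4 each), and the log2 difference was 0.37 (limma adjusted p = 0.999). BACH1, a repressor of NRF2 targets, was at 21.96 RPKM in Chahua 2 and at 7.23 to 12.02 RPKM elsewhere. Of 14 genes of glutathione transport and turnover, 9 were higher and 5 lower, and 0 passed. HPGDS, a glutathione-dependent prostaglandin synthase, was at 3.15 and 2.11 RPKM in Linzhi Tibetan, 5.57 and 4.71 in Lhasa White, 4.67 and 4.79 in Chahua, with 3.20 and 3.04 in White Leghorn. ESD, which releases glutathione from S-formylglutathione, ranged between 89.0 and 139 RPKM.

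Of 9 genes for sources of oxidants, 3 were higher and 6 lower, and 0 passed. CYBA, the p22phox subunit of NADPH oxidases, averaged 56.6 ± 9.86 RPKM in highland and 40.4 ± 4.25 RPKM in lowland libraries (SD, n = 4 each). Its log2 difference was 0.47 with limma adjusted p = 0.999. Its lowest highland library, Linzhi Tibetan 2 at 44.6 RPKM, lay below White Leghorn 1 at 45.6 RPKM. MAOA, a monoamine oxidase, ranged between 7.0 and 12.3 RPKM. Of 6 genes of heme and iron handling 1 was higher and 5 lower, with BLVRA, a biliverdin reductase, at 0.503 to 2.51 RPKM and CP, ceruloplasmin, at 8.21 to 19.5 RPKM, and 0 passed.

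Of 9 genes for selenoproteins and their synthesis, on which GPX1, GPX3 and the thioredoxin reductases depend, 6 were higher and 3 lower, and 0 passed. SEPP1, the plasma selenium carrier, was at 90.4 and 85.3 RPKM in Linzhi Tibetan, 141 and 191 in Lhasa White, 122 and 186 in Chahua, with 111 and 93.3 in White Leghorn, lowest in Linzhi Tibetan. PSTK, a kinase of selenocysteine transfer RNA, was at 18.1 RPKM in Linzhi Tibetan 2 and 7.49 to 10.8 RPKM in the other libraries. Of 16 other redox genes 11 were higher and 5 lower, and 0 passed, with PON2, a mitochondrial lactonase, at 26.5 to 37.0 RPKM and MT4, a metallothionein, at 9.27 to 39.0 RPKM.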

How the data were processed

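The deposited table holds RPKM values for 8 libraries, per the file headers. Heart RNA was isolated with TRIzol and prepared with an Illumina messenger RNA kit, per the labels' protocols. The submitters' processing notes name BWA without a version. Build, gene models, counting, strand and filters were not given in the sources used here. All per-sample columns were used. Symbols were those of the table, and chromosomes came from the GRCg7b gene table, matched on symbol.

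Mapped reads were recovered from the RPKM steps: for 99.987% of genes the 8 values were whole reads (tolerance 0.05 reads), from 17245669 to 22157553 mapped reads per library. Reads of a gene were taken at the smallest length that gave whole reads. For some genes, such as GPX8 at 1901.5 bases, the resulting length was not whole, so their reads are understated. Reads of paralogs, of overlapping genes and of antisense partners cannot be separated in these values. The 11556 genes that reached 1 RPKM in 2 or more libraries were fitted as log2(RPKM + 1) with 1 mean per breed in limma 3.58.1 (R 4.3.3, empirical Bayes with a variance trend, 4 residual degrees of freedom). Differences on this scale understate the change of low genes. P-values were adjusted by Benjamini-Hochberg over all these genes within each contrast, with a threshold of 0.05. The W-linked and erythroid terms were added beside the breed means. The alternatives were a pseudocount of 0.1, no filter, a mean RPKM of at least 5, median ratio scaling, quantile normalization, a replicate block, omission of each library, omission of both libraries highest in MYH7 and BMP-10 (Lhasa White 2 and Chahua 2), the W-linked or erythroid level as a covariate, and voom on the recovered reads, which replaced a count test. The erythroid covariate and the alternatives for both terms were chosen after seeing the data. The fit was tested on simulated data. Python 3.11.15, NumPy 2.4.6, pandas 2.3.3 and matplotlib 3.10.9 were used for the rest.

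The genes and the lists were chosen with earlier results of these data known. Genes were named by rule: those past the threshold, the 10 with the smallest F test p, the 5 with the smallest highland minus lowland p, the 3 most abundant of each family, a fixed set of classical enzymes, and up to 2 per related list. Others (GPX8, GSTA, GSTCD, GLRX3, TXNRD2, TXNDC11 and the marker genes) were chosen after their values were seen.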

Additional observations from a re-analysis of the deposited data

Results flagged for a closer look

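Within the 4 highland or the 4 lowland libraries, Dixon's gap test marked 9 of 100 groups (9.0%), where its nominal rate is about 1 in 20. The groups share libraries and each mix 2 breeds. The share over all genes was not counted, so whether 9.0% is particular to these genes is not known. In highland libraries, Lhasa White 2 was far above the other 3 for TXNDC5 at 47.3 RPKM (others 22.0 to 24.8), MSRB1 at 32.3 RPKM (21.4 to 22.5), GPX7 at 23.8 RPKM (12.2 to 12.9) and TXNDC11 at 10.2 RPKM (7.54 to 7.77). It was far below them for MSRB3 at 78.9 RPKM (100.7 to 104). GCLC was far higher in Lhasa White 1, at 22.0 RPKM (others 14.0 to 14.5). In lowland libraries, Chahua 2 was far above the other 3 for SOD3 at 62.5 RPKM (7.86 to 15.1) and GSTA at 10.6 RPKM (4.41 to 4.66), and far below them for PRDX6 at 107 RPKM (155 to 159.6). Of these 9 values, 8 belong to Lhasa White 2 or Chahua 2, the libraries highest in MYH7, BMP-10 and NR2F2, of the list of 6 atrial markers. The other atrial markers, NPPA, TBX5 and GJA5, did not follow this order. Chahua 2 was the lowest library for TBX5 (41.8 RPKM) and GJA5 (49.4 RPKM). Over all genes past the filter, these libraries held the highest value of 22.8% and 25.2%. Their ventricular markers summed to 10736 and 24391 RPKM, the lowest and the highest of the 8 libraries. The part of tissue composition in these values was not tested.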

How the results depend on the processing

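None of the 50 genes passed in any contrast under any of the 18 alternatives, and the smallest adjusted p of a gene was 0.0701 (Chahua minus White Leghorn, without Chahua 1). Between highland and lowland breeds the count over all genes was 1, and 0 without the low-value filter, with the replicate block, without both libraries highest in MYH7 and BMP-10, with the W-linked covariate and with voom; over omissions of 1 library it was 0 to 1. The F test called 0 of all genes, 14 without the filter, and 0 to 1 over the omissions (1 without Lhasa White 1). Of the 50 genes, 22 kept their direction between highland and lowland breeds in all 18 alternatives and 28 turned in at least 1; the cause was not tested. Among differences named above, over omissions of 1 library GPX1 ran from -0.063 to 0.21, GPX3 from -0.016 to 0.22, NFE2L2 from -0.11 to 0.039, PRDX1 from -0.15 to 0.0049, PRDX6 from -0.15 to 0.12 and SOD2 from -0.23 to 0.065. Without both libraries highest in MYH7 and BMP-10 NFE2L2, PRDX1 and SOD2 were at 0.071, 0.029 and 0.10, and with the W-linked covariate PRDX6 and TXN were at 0.044 and -0.0086. Over all alternatives SOD3 ran from -0.56 to 1.25, GSTA from 0.054 to 0.74, and over the omissions SOD1 from 0.0045 to 0.096 and TXN from 0.15 to 0.51. Linzhi Tibetan minus White Leghorn in MSRA was -0.22 without Linzhi Tibetan 1, and with the W-linked covariate Linzhi Tibetan minus Chahua in GCLC was -1.17. The erythroid slope of HMOX2 ran from -0.81 to 0.19 over the omissions. Replicate numbers did not pair the libraries: correlations of replicate differences between breeds ran from -0.332 to 0.17. With the replicate block 0 of 50 genes passed in any contrast. Depth limits the low genes most, with as few as 30 reads in a library for NQO1.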
